A study of Mus musculus with 4 samples.

Results

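The coagulation and fibrinolysis genes described here are 35 mouse genes listed by symbol, which encode the clotting factors, the enzymes of the vitamin K cycle, fibrinogen and its cross-linking enzyme, the natural anticoagulants and the plasminogen system. A gene was measured where a probe set of the array named it alone, and 34 of the 35 were measured, among 16758 genes in all. Cpb2, a plasma carboxypeptidase that protects fibrin from lysis, was not analysed here. Livers were taken from mice of the C57BL/6 background at 4 weeks of age, and total RNA of whole liver was hybridized to a 3′ expression array. The 2 Control livers were labelled as wild type. The 2 Cnot3KO livers came from mice in which Cnot3, a subunit of the Ccr4-Not complex that shortens mRNA poly(A) tails, was deleted by a Cre recombinase under the Albumin promoter, so that endothelial cells, macrophages and stellate cells of the same livers were not targeted. The methods of the study used as controls genotypes with floxed alleles, with Alb-cre or with both, and which of these the arrays came from is not given. The study also left the smallest knockout mice out of its later experiments. The labels do not say whether the livers came from separate litters. Each p-value rests on the spread between these 4 arrays and on a spread borrowed from the other probe sets of the same arrays. It covers no wider sample of mice.

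Blood clotting proceeds through serine proteases that circulate as inactive precursors and activate one another until thrombin turns fibrinogen into fibrin, and factor XIII then cross-links the fibrin. Several of these precursors must be carboxylated on glutamate residues, in a reaction that uses vitamin K, before they can bind to membranes. Hepatocytes make most of the plasma proteins of the cascade and its inhibitors, whereas factor VIII, von Willebrand factor and thrombomodulin come mainly from endothelial cells and the plasminogen activators from cells other than hepatocytes. Plasmin, made from plasminogen by these activators, dissolves the clot.

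Of the 34 measured genes, 7 were lower and 2 were higher in Cnot3KO livers, and 25 did not pass the test. The genes that fell were F9, F7, F5, F13b, Klkb1, Proz and Ggcx, with log2 differences from -1.98 to -0.84, and those that rose were Plat and Plaur, on the fibrinolytic side. Calls were made at an adjusted p under 0.05 from limma with Benjamini-Hochberg adjustment over 38405 probe sets, and the same test called 4.64% of all 16758 genes lower and 12.2% higher. The members called made up 20.6% of those measured on the lower side and 5.88% on the higher side. The median log2 difference of the members was -0.18, and that of all genes tested was 0.00. The Control and Cnot3KO arrays did not overlap for 13 members that were lower and 6 that were higher, and overlapped for 15. Over all genes 30.3% did not overlap with Cnot3KO lower and 34.8% with Cnot3KO higher.

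The members were also counted by origin, and the 2 sets were not tested against each other. Of the 25 genes made in hepatocytes or broadly, 7 were lower (28%) and 0 were higher, with a median log2 difference of -0.30. Of the 9 genes known to be made mainly outside hepatocytes, 0 were lower and 2 were higher (22.2%), with a median of 0.38. Against 4.64% and 12.2% of all genes, so small a count in 9 genes gives them no direction of their own. At an unadjusted limma p under 0.05, which 12.4% of all genes passed as lower and 22.9% as higher, 10 of the 25 were lower and 1 higher (Serpina10), and 1 of the 9 was lower (Plau) and 2 higher. In RNA of whole liver, fewer cells of a type and less RNA per cell cannot be told apart. The hepatocyte markers are set beside these counts. Of 10 measured, 1 was lower (Apob, at a log2 difference of -1.13) and 0 were higher, and their median was -0.02. Apoa1 was higher at an unadjusted limma p of 0.048 (log2 difference 0.40, adjusted p = 0.157). Their summed linear intensity was 68967 to 70895 in Control and 73177 to 74196 in Cnot3KO livers. The most intense markers, Apoa1 among them, weigh most in this sum.

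**Figure D1:**
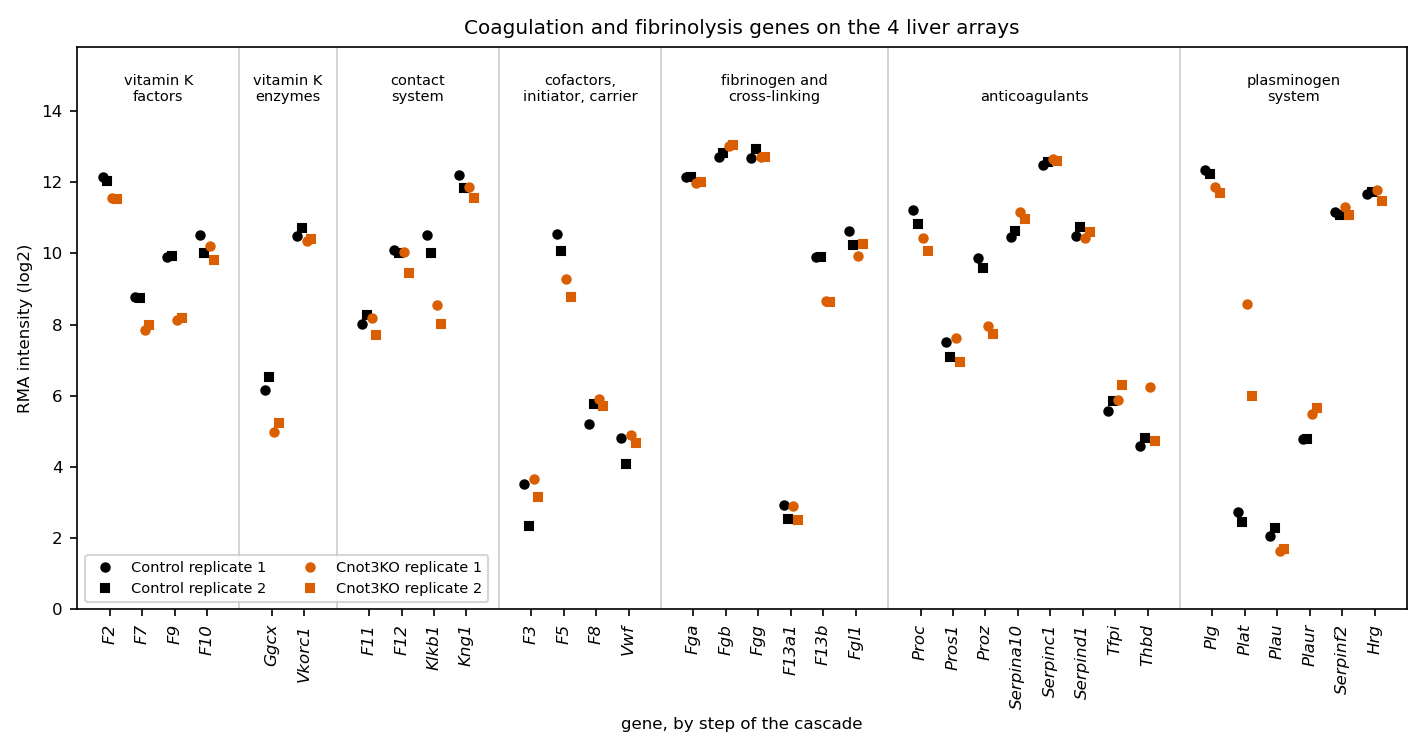
RMA intensity (log2) of the 34 measured genes on each array, grouped by step of the cascade. Black symbols are the 2 Control livers and orange symbols the 2 Cnot3KO livers, with circles for replicate 1 and squares for replicate 2. F9, Klkb1, Proz, F5 and F13b lie clearly lower in both Cnot3KO livers, the fibrinogen chains lie close together, and Plat is high in both Cnot3KO livers but at 8.58 and 6.00.

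The members that fell include neighbours of genes that did not pass, so the sequences before their start sites are shown. F11 and Klkb1 lie side by side on the same strand, and F7, F10 and Proz follow one another with 0 protein-coding genes between them, as do Fgg, Fga and Fgb. The following lines give 250 bases before the start of the 3 members with the largest falls (Klkb1, Proz and F9), of F13b, and of F11 and Fgb, which did not pass the test. They were read from RefSeq promoters of GRCm38.p6, 5′ to 3′ along the gene. Capitals mark matches on either strand to the HNF1 motif GTTAAT or the C/EBP motif TTGCNNAA. GTTAAT is only a part of the HNF1 site.
Klkb1 (chr8:45294836-45295085, minus strand): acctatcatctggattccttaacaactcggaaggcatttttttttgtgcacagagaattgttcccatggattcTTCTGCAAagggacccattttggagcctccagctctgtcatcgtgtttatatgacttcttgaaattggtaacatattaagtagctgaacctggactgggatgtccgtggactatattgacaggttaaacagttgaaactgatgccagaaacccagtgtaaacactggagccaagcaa
F11 (chr8:45262032-45262281, minus strand): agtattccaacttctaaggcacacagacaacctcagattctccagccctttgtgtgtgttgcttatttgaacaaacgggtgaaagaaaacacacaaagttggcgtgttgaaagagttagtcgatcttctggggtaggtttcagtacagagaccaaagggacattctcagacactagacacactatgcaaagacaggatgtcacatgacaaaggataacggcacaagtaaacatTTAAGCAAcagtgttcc
Proz (chr8:13060658-13060907, plus strand): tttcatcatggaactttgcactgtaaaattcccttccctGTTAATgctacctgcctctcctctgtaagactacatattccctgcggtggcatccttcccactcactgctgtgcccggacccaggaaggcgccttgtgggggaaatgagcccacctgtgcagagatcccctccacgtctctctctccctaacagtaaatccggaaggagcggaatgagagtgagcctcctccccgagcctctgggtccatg
F9 (chrX:59999214-59999463, plus strand): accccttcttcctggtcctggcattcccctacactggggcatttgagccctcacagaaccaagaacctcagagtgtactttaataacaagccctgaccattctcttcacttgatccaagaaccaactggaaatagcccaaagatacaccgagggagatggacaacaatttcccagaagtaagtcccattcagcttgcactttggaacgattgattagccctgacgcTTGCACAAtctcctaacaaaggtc
F13b (chr1:139501457-139501706, plus strand): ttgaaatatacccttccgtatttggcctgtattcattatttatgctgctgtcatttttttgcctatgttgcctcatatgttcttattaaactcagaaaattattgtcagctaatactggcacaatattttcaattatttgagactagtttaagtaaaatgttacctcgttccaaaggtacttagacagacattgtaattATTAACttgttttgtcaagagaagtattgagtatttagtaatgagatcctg
Fgb (chr3:83049864-83050113, minus strand): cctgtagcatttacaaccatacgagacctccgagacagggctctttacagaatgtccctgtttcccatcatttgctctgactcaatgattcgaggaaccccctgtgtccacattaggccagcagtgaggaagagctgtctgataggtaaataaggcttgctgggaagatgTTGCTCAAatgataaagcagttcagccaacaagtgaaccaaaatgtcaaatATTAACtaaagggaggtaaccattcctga

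The capitals start 177 bases before the start of Klkb1 and 24 bases before that of F9 (C/EBP), and 211 bases before the start of Proz and 51 bases before that of F13b (HNF1). In F11 a C/EBP match starts 17 bases before the start, and Fgb has one at 80 bases and an HNF1 match at 29 bases. These 2 motifs and the HNF4 motif CAAAGTCC, 3 in all and none overlapping another in the lines above, were searched in windows of 250 bases before to 50 bases after each start. A RefSeq promoter was found for 25 of the 34 genes. The C/EBP motif was in 9 of the 25 genes and in 10.8% of 32851 promoters of all genes, the HNF1 motif in 5 and in 7.10%, and the HNF4 motif in 0 and in 1.42%. At least 1 of the 3 was in 12 of the 25 (48% against 18.1% of all promoters). A member counted if any of its promoters matched, whereas the share of all promoters counts each promoter by itself. Of the 7 genes that fell, 5 held at least 1 motif. Of the 13 other genes not called and not known to be made mainly outside hepatocytes, 6 did. Matches were thus found in genes that fell and in genes that did not pass, and F7 and F5 were lower with no match in this window. Only these strings were searched, so a gene without a match, also to the HNF4 motif, may still hold another form of such a site.

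Among the 4 vitamin K-dependent clotting factors, F9 and F7 were lower in Cnot3KO livers. F9 encodes factor IX, the protease missing in haemophilia B, and read 9.91 and 9.93 in Control livers against 8.13 and 8.18 in Cnot3KO livers (log2 intensity). Both Cnot3KO livers were far below both Control livers, 3.40-fold lower on average (log2 difference -1.77 ± 0.16 SE, adjusted p = 0.006). F7 encodes factor VII, which starts clotting together with tissue factor. It read 8.79 and 8.74 in Control livers against 7.85 and 7.99 in Cnot3KO livers, with no overlap (log2 difference -0.84 ± 0.16, adjusted p = 0.031). F2, the gene for prothrombin, read 12.14 and 12.04 in Control livers against 11.56 and 11.53 in Cnot3KO livers. Its groups did not overlap either, and it did not pass (log2 difference -0.55 ± 0.16, 95% interval -0.95 to -0.15, adjusted p = 0.083). It was called lower with a prior that follows intensity and at a log2 of the value plus 16, both at an adjusted p of 0.033. With any 1 array left out F9 was still called, whereas the adjusted p of F7 was then between 0.071 and 0.181.

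F10, the gene for factor X, gave values that depended on the probe set. The probe set with the highest mean read 10.52 and 10.02 in Control livers against 10.20 and 9.82 in Cnot3KO livers, so that the groups overlapped (log2 difference -0.26 ± 0.25, adjusted p = 0.512). Another read 7.26 and 7.18 in Control livers against 6.15 and 6.52 in Cnot3KO livers and was lower (log2 difference -0.88 ± 0.19, adjusted p = 0.043). The last fell between them (log2 difference -0.72 ± 0.19, adjusted p = 0.067). All 3 were below 0, with 95% intervals that overlap, and the gene is counted here as not called.

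Ggcx, the gamma-glutamyl carboxylase that carries out the vitamin K-dependent reaction, was lower on both of its probe sets. The main one read 6.15 and 6.51 in Control livers against 4.99 and 5.22 in Cnot3KO livers, with no overlap (log2 difference -1.23 ± 0.20, adjusted p = 0.021). The other read 4.67 and 4.80 against 2.70 and 2.65 (log2 difference -2.06 ± 0.16, adjusted p = 0.005). Its Cnot3KO values lay below the median of all probe sets. Vkorc1, the reductase that recycles vitamin K and the target of warfarin, did not pass (log2 difference -0.23, 95% interval -0.65 to 0.20, adjusted p = 0.406). The 7 members with a carboxylated Gla domain add Proc, Pros1 and Proz to the clotting factors. Of these 7, 3 were lower (42.9%, against 4.64% of all genes) and 0 higher, and the median was -0.76. With any 1 array left out the adjusted p of the main Ggcx probe set was between 0.051 and 0.100.

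In the contact system Klkb1 alone passed the test. Klkb1 encodes plasma prekallikrein, which activates factor XII and releases bradykinin from kininogen. It read 10.51 and 9.998 in Control livers against 8.54 and 8.002 in Cnot3KO livers, and each Cnot3KO liver was more than a log2 unit below either Control liver. The fall was 3.95-fold (log2 difference -1.98 ± 0.28, adjusted p = 0.014). F11, its chromosomal neighbour and the gene for factor XI, read 8.01 and 8.26 in Control livers against 8.18 and 7.70 in Cnot3KO livers, which overlapped (log2 difference -0.20 ± 0.23, adjusted p = 0.596). The 95% interval of F11 was -0.77 to 0.38 and that of Klkb1 was -2.68 to -1.29, and the difference between the 2 genes was not tested. F12, which encodes factor XII, and Kng1, which encodes kininogen, did not pass either (log2 differences -0.30 and -0.30, adjusted p = 0.435 and 0.400). Without Control replicate 1 the adjusted p of Klkb1 was 0.063, at a log2 difference of -1.73.

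Of the cofactors and the initiator, F5 fell and the genes of other cell types did not pass. F5 encodes factor V, the cofactor of factor X in the conversion of prothrombin. It read 10.54 and 10.06 in Control livers against 9.28 and 8.77 in Cnot3KO livers, with no overlap (log2 difference -1.28 ± 0.26, adjusted p = 0.037). The other F5 probe set had a log2 difference of -1.16 ± 0.21 (adjusted p = 0.026). F8, the gene for factor VIII, read 5.21 and 5.76 in Control livers against 5.89 and 5.71 in Cnot3KO livers, and its 95% interval ran from -0.27 to 0.91. Vwf, which encodes the carrier of factor VIII, and F3, which encodes tissue factor, also overlapped between groups (log2 differences 0.33 and 0.48, adjusted p = 0.464 and 0.477). F3 lay near the median of all probe sets. Of 13 sinusoidal endothelial markers 0 were called by limma, also at an unadjusted p under 0.05, their median was 0.01, and their summed intensity was 1208 to 1391 in Control and 1308 to 1407 in Cnot3KO livers. The call of F5 was lost with any 1 array left out (adjusted p 0.054 to 0.128) and at a log2 of the value plus 16 (0.089).

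The 3 fibrinogen chains stayed within a narrow range and none passed the test, while F13b was lower. Fga read 12.14 and 12.16 in Control livers against 11.98 and 12.003 in Cnot3KO livers, and its 95% interval of the log2 difference was -0.55 to 0.24. Fgb read 12.70 and 12.82 against 13.03 and 13.05, with an interval of -0.12 to 0.68. Fgg read 12.69 and 12.93 against 12.72 and 12.70, with an interval of -0.53 to 0.34. The 2 groups did not overlap for Fga, which was lower, and Fgb, which was higher, and overlapped for Fgg. F13b encodes the carrier subunit of factor XIII in plasma. It read 9.89 and 9.90 in Control livers against 8.67 and 8.63 in Cnot3KO livers, a 2.37-fold fall with both replicates of each group close together (log2 difference -1.24 ± 0.16, adjusted p = 0.012). F13a1, which encodes the catalytic subunit and is made in macrophages and megakaryocytes, read 2.92 and 2.52 against 2.89 and 2.51 and did not pass (log2 difference -0.03 ± 0.23, adjusted p = 0.952). Its value on every array lay below the median of all probe sets, 3.09 to 3.14, where a fall may not show. Without Cnot3KO replicate 1 or 2 the adjusted p of F13b was 0.057 or 0.052. Fgl1, a fibrinogen-like protein secreted by hepatocytes, had a log2 difference of -0.33 (adjusted p = 0.359).

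**Figure D2:**
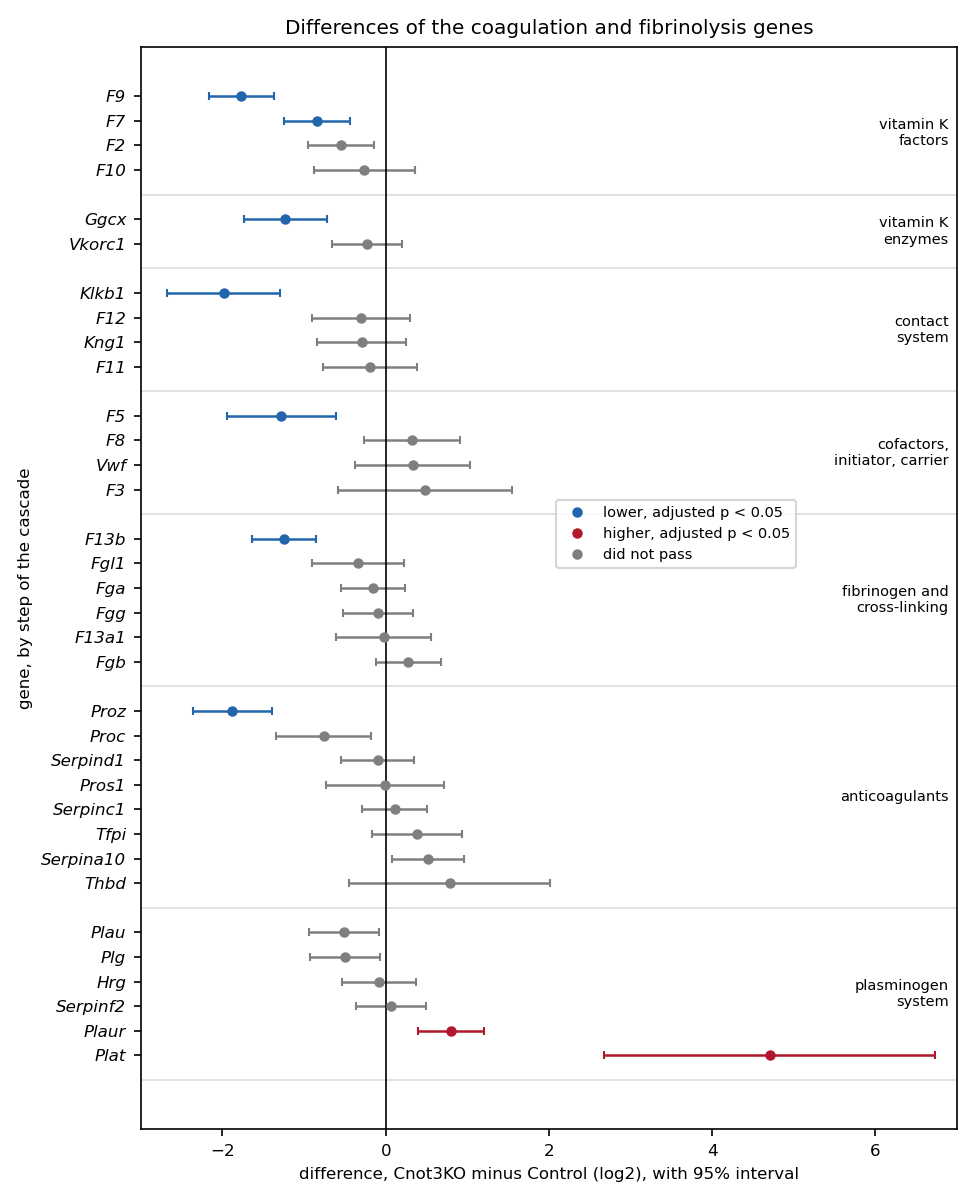
Log2 difference (Cnot3KO minus Control) of each measured gene with its 95% interval, grouped by step and sorted within it. Blue points were lower and red points higher at an adjusted p under 0.05, and grey points did not pass, which does not show that they were equal. Each step but the plasminogen system holds 1 or 2 genes that fell beside others that did not pass, and Plat has the widest interval, from 2.67 to 6.73.

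Among the 8 anticoagulants Proz was lower and the others did not pass. Proz encodes protein Z, the cofactor with which the serpin Serpina10 inhibits factor X. It read 9.87 and 9.59 in Control livers against 7.97 and 7.73 in Cnot3KO livers, with no overlap and a 3.68-fold fall (log2 difference -1.88 ± 0.19, adjusted p = 0.008). Its other probe set read 7.43 and 7.62 against 6.68 and 6.72 and was also lower, by less (log2 difference -0.83 ± 0.17, adjusted p = 0.034). The partner serpin Serpina10 read 10.45 and 10.64 in Control livers against 11.17 and 10.96 in Cnot3KO livers. It was thus higher in both Cnot3KO livers without passing (log2 difference 0.52 ± 0.18, 95% interval 0.07 to 0.96, adjusted p = 0.119). The call of Proz held with each array left out, at log2 differences from -2.02 to -1.74.

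Protein C, encoded by Proc, cleaves factors V and VIII. Proc read 11.23 and 10.82 in Control livers against 10.45 and 10.07 in Cnot3KO livers, which did not overlap, and missed the threshold (log2 difference -0.76 ± 0.23, 95% interval -1.34 to -0.19, adjusted p = 0.090). Its cofactor gene Pros1 was between 6.95 and 7.63 on all 4 arrays with overlapping groups (log2 difference -0.00 ± 0.29, adjusted p = 0.995). Serpinc1, the gene for antithrombin, and Serpind1, the gene for heparin cofactor II, did not pass (95% intervals -0.29 to 0.51 and -0.54 to 0.35). Together with Serpina10 and Serpinf2, 0 of the 4 serpins were called either way by limma, with Serpina10 alone at an unadjusted p under 0.05, and their median was 0.09. Of the 12 members of the trypsin-type protease family, 4 were lower (33.3%) and 1, Plat, was higher (8.33%), with a median of -0.53. Over all genes 4.64% were called lower and 12.2% higher.

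Of the anticoagulants made outside hepatocytes, Tfpi, the inhibitor of the tissue factor pathway, had 4 probe sets with log2 differences from 0.16 to 0.48, and none was called, although the probe set at 0.48 had an unadjusted limma p of 0.034. Thbd encodes thrombomodulin, the endothelial receptor with which thrombin activates protein C. It read 4.58 and 4.81 in Control livers against 6.23 and 4.73 in Cnot3KO livers, so that 1 Cnot3KO liver was high and the other lay between the Control livers (log2 difference 0.78 ± 0.49, adjusted p = 0.330). Without Cnot3KO replicate 2 it was called, at 1.54 (adjusted p = 0.032), and without Cnot3KO replicate 1 the difference was 0.03. In each such fit the Cnot3KO group is 1 array, which is assumed to vary as the Control arrays and the prior do.

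The plasminogen system held the 2 members that rose. Plat encodes tissue-type plasminogen activator, and its main probe set read 2.74 and 2.44 in Control livers against 8.58 and 6.00 in Cnot3KO livers. Both Cnot3KO livers were above both Control livers, and they differed from one another by more than 2 log2 units (log2 difference 4.70 ± 0.81, 26.1-fold, 95% interval 2.67 to 6.73, adjusted p = 0.023). The other Plat probe set read 2.37 and 2.51 in Control livers against 2.47 and 2.76 in Cnot3KO livers and was not called (log2 difference 0.18, 95% interval -0.29 to 0.64, adjusted p = 0.556). The main probe set in Control livers and the other one on every array lay below the median of all probe sets, 3.09 to 3.14. Without Control replicate 1 or 2 the call was lost (adjusted p 0.099 or 0.091), and without Cnot3KO replicate 1 or 2 it was kept at log2 differences of 3.41 and 6.00 (0.007 and 0.002). The mean of both probe sets gave 2.44 (0.019), and a log2 of the value plus 16 gave 3.02 without a call (0.150).

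Plaur encodes the receptor of urokinase-type plasminogen activator. It read 4.77 and 4.77 in Control livers against 5.50 and 5.64 in Cnot3KO livers, with no overlap, and was 1.74-fold higher (log2 difference 0.80 ± 0.16, adjusted p = 0.035). Plau, the activator that binds this receptor, read 2.06 and 2.28 against 1.62 and 1.69, at the low end of the arrays (log2 difference -0.51 ± 0.17, adjusted p = 0.113). Plg, the gene for plasminogen itself, read 12.33 and 12.23 in Control livers against 11.88 and 11.69 in Cnot3KO livers. Its groups did not overlap, and it did not pass (log2 difference -0.50 ± 0.17, 95% interval -0.93 to -0.08, adjusted p = 0.116). Serpinf2, the inhibitor of plasmin, and Hrg, a histidine-rich glycoprotein that binds plasminogen, had 95% intervals of -0.36 to 0.49 and -0.53 to 0.38. The call of Plaur was lost with any 1 array left out (adjusted p 0.080 to 0.184), after a repeated quantile normalization (0.078), with the replicate block (0.052) and with a prior that follows intensity (0.051).

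Many markers of cholangiocytes, and some of macrophages and stellate cells, were higher beside Plat and Plaur, and their part in these 2 values was not tested. Over all genes limma called 12.2% higher and 4.64% lower. Of 8 cholangiocyte markers 6 were higher and 0 lower, the median log2 difference was 3.24, and their summed linear intensity was 56.0 to 65.3 in Control and 832 to 1161 in Cnot3KO livers. Like Plat and Thbd, the list was higher in Cnot3KO replicate 1, with a mean log2 value of 5.97 against 5.27 in replicate 2. For example Epcam read 3.43 and 3.21 in Control livers against 7.64 and 6.37 in Cnot3KO livers, and Krt19 read 3.08 and 3.51 against 5.11 and 4.38. Sox9 (5.80 and 5.74) and Prom1 (9.20 and 9.06) differed less between the Cnot3KO livers. Of 14 macrophage markers 5 were higher and 1, Cd163, was lower, with a median of 0.87 and summed intensities of 2225 to 2498 in Control and 4146 to 4441 in Cnot3KO livers. Stellate cell markers were higher in 5 of 11 and lower in 0 (median 0.93, summed intensity 1921 to 2482 and 4426 to 5751), and 0 of 8 platelet markers were called, with 2 higher at an unadjusted limma p under 0.05 against 22.9% of all genes (median 0.02, summed intensity 130.0 to 132.8 and 141.9 to 160.6). Of 7 erythroid markers 3 (Alas2, Car1 and Klf1) were lower and 0 higher, with a median of -1.32 and summed intensities of 562 to 735 in Control and 253 to 384 in Cnot3KO livers. The higher mean log2 value in Cnot3KO replicate 1 was not particular to cholangiocyte markers. It was also seen for stellate cell markers (7.52 against 7.23 in replicate 2) and for all measured members (8.76 against 8.50). It was not seen for macrophage (6.80 against 6.81), platelet (3.77 against 3.94) or erythroid markers (4.08 against 4.52). RMA values hold no 0, so that no marker can be called absent from them.

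**Figure D3:**
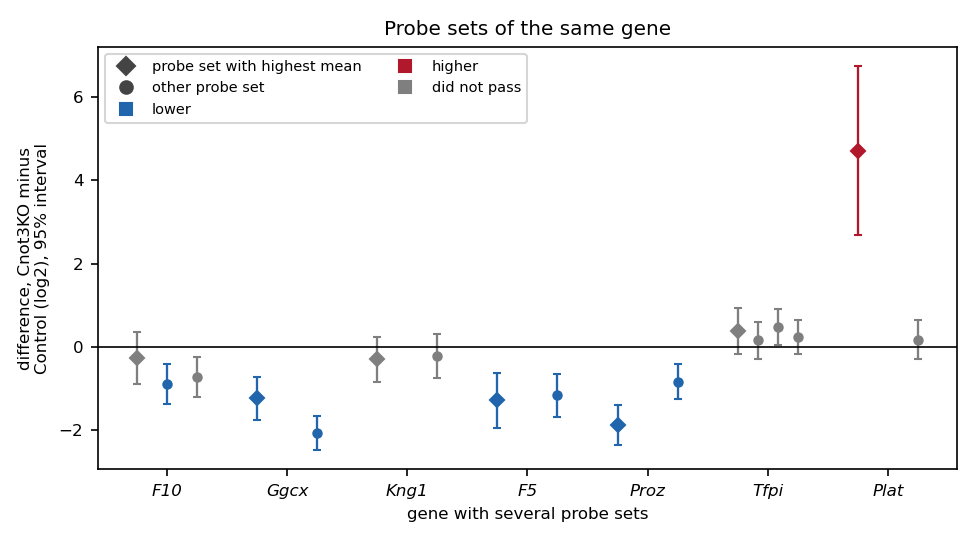
Log2 difference (Cnot3KO minus Control) with its 95% interval for each probe set of the 7 members measured by several. Diamonds are the probe set with the highest mean, which represents the gene, and circles the others, with blue for lower, red for higher and grey for not passing. The probe sets of Ggcx, F5 and Proz all lie below 0 and were called, 1 of 3 for F10 was called, and those of Plat lie at 4.70 and 0.18.

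Other genes of clotting and fibrinolysis were taken from a list of 29, of which 23 were measured (median -0.32). Of these 1 was lower (4.35%) and 4 were higher (17.4%), against 4.64% and 12.2% of all genes. These counts give the list no direction of its own. Anxa2, a cell surface annexin that assembles plasminogen with its activator, read 6.34 and 7.16 in Control livers against 10.58 and 10.09 in Cnot3KO livers. It was 12.02-fold higher (log2 difference 3.59 ± 0.33, adjusted p = 0.007). Plgrkt, a plasminogen receptor, and Thbs1, the gene for thrombospondin 1, were higher by log2 differences of 1.67 ± 0.20 (adjusted p = 0.011) and 0.93 ± 0.19 (adjusted p = 0.035). In Control livers Thbs1 lay below the median of all probe sets. Procr, the endothelial receptor of protein C, read 3.49 and 3.94 in Control livers against 6.73 and 5.20 in Cnot3KO livers, again higher in replicate 1 (log2 difference 2.25 ± 0.51, adjusted p = 0.046). The gene that fell was Cpn2, a subunit of carboxypeptidase N (log2 difference -1.04 ± 0.19, adjusted p = 0.026). Lman1, a receptor that carries factors V and VIII out of the endoplasmic reticulum, read 9.53 and 9.66 in Control livers against 8.44 and 8.94 in Cnot3KO livers and did not pass (log2 difference -0.91 ± 0.22, adjusted p = 0.055). Others of the 18 genes not called lay on both sides of 0. Among them were Tfpi2 (log2 difference -1.55, adjusted p = 0.069), S100a10 (1.62, 0.088) and Mcfd2 (-0.45, 0.204).

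Complement and acute phase proteins, many of which hepatocytes also secrete, are set beside the whole list of 34 members, with 7 lower and 2 higher (median -0.18). Of 21 complement genes 8 were lower and 4 higher (median -0.66), and 3 of the 4, C1qa, C1qb and C1qc, are known to be made by macrophages. Of 18 acute phase genes 3 were lower and 2 higher (median -0.04). The shares were 38.1% lower and 19.0% higher for complement, and 16.7% and 11.1% for acute phase genes. Over all genes they were 4.64% and 12.2%. These lists share the same 4 arrays and were not tested against one another.

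**Figure D4:**
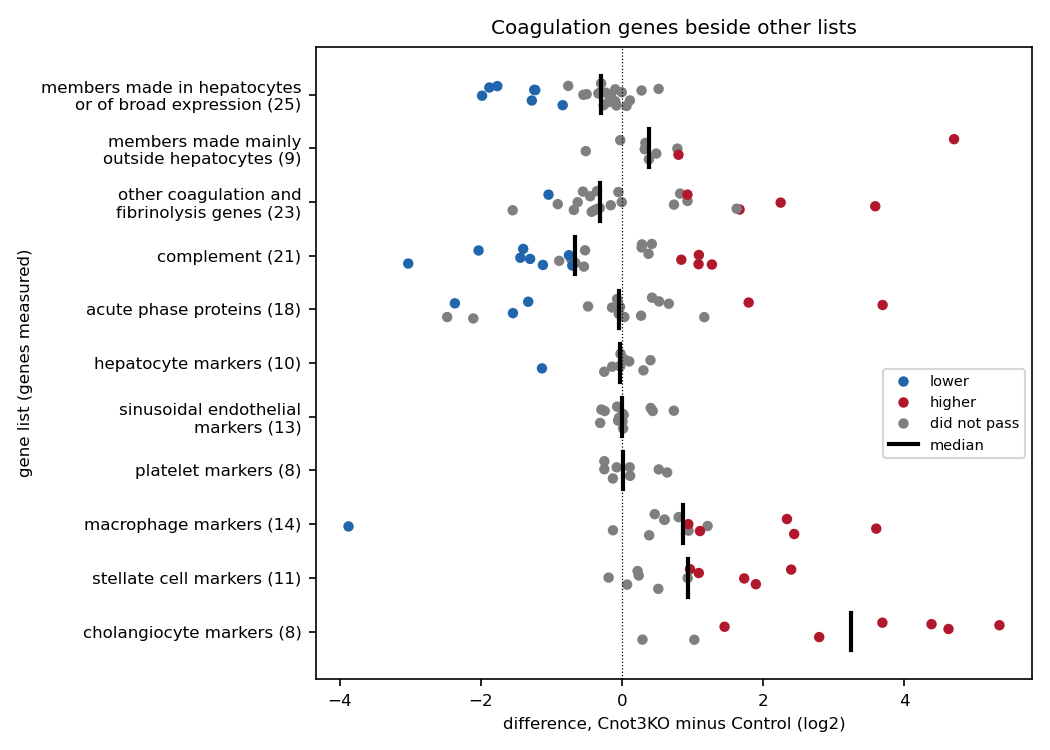
Log2 difference (Cnot3KO minus Control) of each measured gene in the coagulation lists and in comparison lists, 1 point per gene with its number of genes in brackets. Blue points were lower, red points higher, grey points did not pass, and the black bar is the median. The members of hepatocyte or broad origin have a median of -0.30, beside -0.02 for hepatocyte markers and 3.24 for cholangiocyte markers.

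The targeted gene and the arrays were checked as follows. Cnot3 read 5.99 and 6.04 in Control livers against 5.15 and 5.30 in Cnot3KO livers (log2 difference -0.79 ± 0.16, adjusted p = 0.037), and its other probe set had a log2 difference of -0.40 (adjusted p = 0.218). Whether these probe sets lie in the deleted part is not given. Over kept probe sets the log2 values correlated at 0.981 within Control, at 0.989 within Cnot3KO and at 0.937 to 0.948 across groups. Xist read 1.99 to 2.33 and Eif2s3y, on the Y chromosome, 7.34 to 7.90 over the 4 arrays, with no call for either.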

How the data were processed

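Gene expression was measured with 1 array for each liver, 2 Control and 2 Cnot3KO, at 4 weeks of age. The authors deposited linear probe set intensities made with Robust Multi-array Average (RMA), as the submitters' processing notes name it, which corrects background, normalizes between arrays and summarises probes. Its version and whether other arrays were normalized with these 4 are not given in the sources used here. The number of arrays limits the precision, and no detection calls were used. Values were turned to log2 with no constant added. A probe set was kept if above the 20th percentile on at least 1 array (38405 of 45037). Each gene took the kept probe set that names it alone and whose log2 values had the highest mean. Of 45 probe sets that name a member alone 44 were kept, and the platform's Entrez identifiers of all 34 measured members were in a RefSeq table.

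Groups were compared with limma 3.58.1 (lmFit, eBayes; R 4.3.3), 2-sided, across all genes and unnamed probe sets, with Benjamini-Hochberg adjustment over kept probe sets. The test had 5.40 degrees of freedom, 3.40 from the prior. The script was tested on simulated data with known changes. Lists are described by counts and medians. Figures were drawn with Python 3.11.15 and matplotlib 3.10.9.

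The members, lists and tests were chosen with earlier results of these data known. Named were the called members, the 8 members with the largest difference, up to 6 called genes of the other pathway list, Cnot3, markers of lists that move with a member, and Xist. The array values of other members and of Lman1 and Eif2s3y were added after their values were seen. So were the differences of Apoa1, Tfpi2, S100a10 and Mcfd2. Alternatives were the filter, normalization, centring, replicate block, probe set choice, prior, pseudocount, the methods' t-test and each array left out. Protein sequences were not used here.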

Additional observations from a re-analysis of the deposited data

How the results depend on the processing

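The count of 7 lower members was 7 or 8 under every alternative that kept all arrays and limma, and 3 to 4 with 1 array left out, where the lone array of a group is assumed to vary like the other group and the prior. At log2 of the value plus 16 the 7 held F2 in place of F5. The count of 2 higher members was 1 with quantile normalization again, with a prior that follows intensity, with the replicate block and at log2 of the value plus 16, and 0 to 2 with 1 array left out. The methods' t-test after adjustment called 0 lower and 0 higher members and 0% of all genes, and at an unadjusted p under 0.05 it called 10 and 2, against 9.39% and 14.1% of all genes; the 2 were Fgb and Plaur, and F5 and Plat were not among its calls. F9 and Proz were called under all 15 limma alternatives, Klkb1 under 14, F13b under 13, Plat under 12, F7 and Ggcx under 11, F5 under 10 and Plaur under 8.

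With the replicate block the call of Plaur was lost (adjusted p = 0.052) and the other 8 were kept. The replicate numbers are only shared, and deviations from the group means correlated between same-numbered arrays at 0.232.

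Some differences that were not called changed sign, F3 (0.48) and Vwf (0.33) among them. F13a1 was 0.056 with quantile normalization again and 0.013 with centring on array medians, and Pros1 was 0.035 with that centring. With 1 array left out the log2 difference ran from -0.23 to 0.17 for F13a1, -0.34 to 0.34 for Pros1, -0.11 to 1.08 for F3, -0.035 to 0.70 for Vwf, -0.22 to 0.024 for Fgg, -0.21 to 0.020 for Serpind1, -0.042 to 0.17 for Serpinf2, -0.44 to 0.048 for F11 and -0.23 to 0.070 for Hrg. None of these was called under any limma alternative. The cause was not tested.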
